A study of Mus musculus with 27 samples.

Results

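Hox genes encode homeodomain transcription factors, and the 38 Hox genes with a named probe on the array were followed here from primary osteosarcomas into their metastases. The members were all genes whose annotated symbol is Hox, a cluster letter from a to d and a number. They are 38 of the 19057 genes named on the array. The 38 members had 57 probes, and the probe with the highest mean over the 27 arrays stood for each gene. Each level is a log2 normalized intensity of that probe, and levels of different genes are not set against each other.

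In mammals the Hox genes lie in 4 clusters, in mouse on chromosomes 6 (Hoxa), 11 (Hoxb), 15 (Hoxc) and 2 (Hoxd). The order of the genes along a cluster follows the order of the body regions in which they are active, from the head end to the tail end and, in the limb, from shoulder or hip to digits. Mesenchymal cells such as fibroblasts and osteoblast precursors keep much of this code in the adult, so that the combination of active Hox genes differs between bones formed at different levels of the body. A low number marks an anterior gene and a high number a posterior one. Whether a metastasis keeps the Hox pattern of the tumour it came from is the question of the comparisons that follow.

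Osteosarcomas, malignant tumours of bone, arose in mice on a C57BL/6 background that carried Col2.3-Cre, a Cre recombinase driven in osteoblast lineages by a 2.3 kb promoter piece of the rat Col1a1 gene. These mice were crossed either to floxed p53 mice, in which Cre removes p53, or to LSL-p53R172H mice, in which Cre switches on a point-mutant p53. The 27 arrays cover 6 localized primaries that did not metastasize, 12 primaries that gave metastases, 7 lung metastases with their own primaries among the 12, and 2 liver metastases. The tumour-bearing bone, the p53 allele, the sex and the age of each mouse are not in the labels used here, no normal bone, lung or liver was analysed, and the labels do not state that specimens came from different animals. The p-values therefore measure how specimens spread.

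Some arrays stood apart in their content. Osteoblast and bone matrix genes, which mark the labelled tumour type, had a list mean of 7.01 to 7.79 in 4 primaries (localized CR-65 and RF-56, metastatic CR-45 and FC-28) against 11.72 to 12.78 in the other 14. The lung metastasis of FC-28 had a list mean of 6.76 for these genes, with 3 of 8 detected, and 0 of 5 cartilage genes. Lung epithelium genes averaged 11.9 to 13.4 in the lung metastases and 4.69 to 5.60 in their 7 primaries. Skeletal muscle genes averaged 8.02 to 13.7 in those primaries and 4.92 to 7.51 in the lung metastases. The liver metastasis of CR-147 carried lung epithelium transcripts as well (9 of 10 detected, mean 9.48), and hepatocyte transcripts averaged 9.59 to 10.7 in the lung metastases of RF-364, CR-147 and RF-379. In tissue samples of this kind, fewer cells of a type and less RNA per cell cannot be told apart.

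Of the 38 members, 28 were detected on at least 2 arrays at a detection p under 0.05, 1 on a single array and 9 on none; 6 were detected on all 27. Detection here and in what follows is that of the chosen probe unless another is named. The detected members were 9 of 10 in cluster a, 7 of 10 in cluster b, 7 of 9 in cluster c and 5 of 9 in cluster d. By position along the cluster, 7 of 11 anterior members (paralog groups 1 to 4), 9 of 11 central members (groups 5 to 8) and 12 of 16 posterior members (groups 9 to 13) were detected on at least 2 arrays. The 9 members whose chosen probe was detected on no array were Hoxa3 (another of its probes was detected on CR-93, at 5.53), Hoxb1, Hoxb8, Hoxb13, Hoxc5, Hoxc12, Hoxd1, Hoxd3 and Hoxd12. A single array detected 14 to 23 members, and the lung metastases (14 to 19) overlapped the localized (14 to 21) and the metastatic primaries (15 to 23). Cluster d had 1 to 4 detected members in the localized and 2 to 5 in the metastatic primaries, 0 to 3 in the lung and 0 to 1 in the liver metastases.

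**Figure D1:**
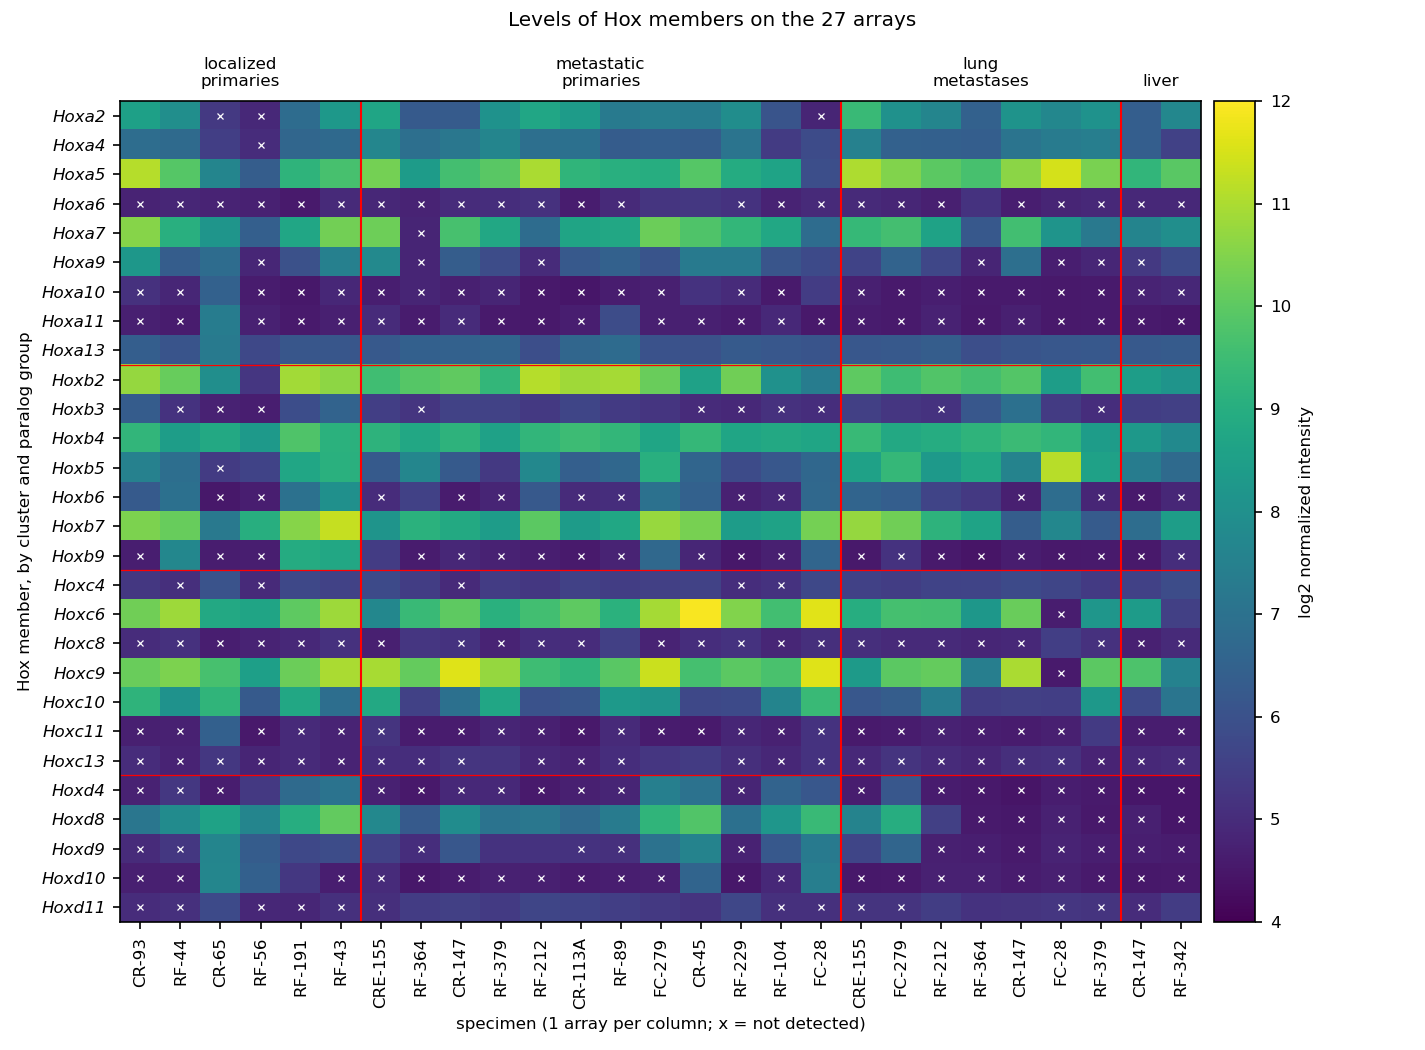
Levels of the 28 Hox members detected on at least 2 arrays (rows, by cluster and paralog group) on the 27 arrays (columns, by group), coloured by log2 normalized intensity, with a cross where the probe was not detected. Hoxd8 is coloured in all 18 primaries and crossed out in 4 of 7 lung and both liver metastases, and the column of the FC-28 lung metastasis lacks Hoxc6 and Hoxc9.

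Primary tumours differed widely among themselves. Over the 18 primaries the SD was largest for Hoxb2 (1.55), Hoxa7 (1.55), Hoxb9 (1.49), Hoxa5 (1.38), Hoxc10 (1.37), Hoxa2 (1.29), Hoxb5 (1.18), Hoxb7 (1.12), Hoxd8 (1.12) and Hoxb6 (1.08), on the log2 scale. Hoxa7, a central gene known for its part in patterning the trunk vertebrae, ran from 4.84 and undetected in RF-364 to 10.54 in CR-93, with a median of 8.81. Hoxc10, a posterior gene of the lumbar region and the hindlimb, ran from 5.55 in RF-364 to 9.41 in FC-28. Its second probe followed the first over the 27 arrays (r = 0.975, a description over arrays that share specimens) and was detected on 17 of them. Hoxb9, a posterior gene of the thoracic region, was detected in 6 primaries. It stood at 8.93 in RF-191, 8.80 in RF-43, 7.70 in RF-44, 6.72 in FC-279, 6.60 in FC-28 and 5.43 in CRE-155, and it was undetected in the other 12 primaries and in all 9 metastases. Hoxb4 varied little (SD 0.39). Hoxa13, the gene of the most distal limb, was detected on every array by 1 probe (5.75 to 7.30). Its other 2 probes were detected on 1 array each, so its level is uncertain.

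The most posterior pattern was that of CR-65, where 10 posterior members were detected against 4 to 9 in the other 17 primaries. Hoxa10 stood there at 6.48, Hoxa11 at 7.35, Hoxc11 at 6.46, Hoxd9 at 7.65 and Hoxd10 at 7.67. These genes are known for patterning the middle and upper segments of the limb. The second probe of Hoxa10 was undetected on every array (4.73 in CR-65), as was that of Hoxd11, also among the 10 members. Hoxa11 was otherwise detected in the RF-89 primary alone (5.85), and Hoxc11 in the lung metastasis of RF-379 (5.36). The second Hoxc11 probe was detected in CR-65 alone (6.93) and was undetected in that metastasis (4.54). Hoxd10, chosen after its values were seen, was detected in all 4 primaries of low osteoblast transcripts (7.67 in CR-65, 6.45 in RF-56, 6.59 in CR-45 and 7.41 in FC-28) and in 1 of the other 14 (RF-191, 5.31). Hoxd9 was detected in the same 4 at 6.33 to 7.65 and in 8 of the other 14, which lay between 4.77 and 7.01. At the anterior end, Hoxb2, a gene of the hindbrain and branchial region, stood at 5.28 to 8.57 in those 4 primaries and at 8.03 to 11.11 in the others, and Hoxa2 was detected in 1 of the 4 and in all 14 others. Its second probe was also detected in CR-65 (5.43). These 4 primaries were picked by their osteoblast transcripts, not by a label, and the differences were not tested.

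Between the primaries that metastasized and those that stayed localized, no Hox member passed the test. Of the 21 members that passed the detection filter (detected on at least 6 of the 18 arrays), 0 passed an adjusted p under 0.05 by limma, where 0.00856% of all 11684 genes did. Hoxb9 came nearest. Its level had a lowest value of 4.63, a median of 6.18 and a highest of 8.93 in the 6 localized primaries, and 4.53, 4.78 and 6.72 in the 12 metastatic ones. The groups overlapped, with the 3 highest values all in localized tumours. The log2 difference, metastatic minus localized, was -1.47 (SE 0.63, adjusted p = 0.733), and Hoxb9 was the 1 member with an unadjusted p under 0.05, against 6.53% of all genes. Hoxd11 differed by 0.25 (SE 0.15, adjusted p = 0.811) and Hoxb6 by -0.73 (SE 0.49, adjusted p = 0.836). The median difference over the 21 members was -0.13, beside 0.01 over all genes tested.

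In the lung, a central gene of cluster b rose and a central gene of cluster d fell. Of 19 members that passed the filter (detected on at least 7 of the 14 arrays), Hoxb5 was higher and Hoxd8 lower than in the own primary, by limma with the specimen as a block. Over all 11214 genes tested the share called was 8.28%, with 5.69% higher and 2.59% lower, so 2 of 19 members is near the background. The median log2 difference was -0.08 over the 19 members and -0.06 over all genes tested.

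Hoxb5 is known in mouse for its activity in the mesenchyme of the developing lung and gut. Its level in the 7 primaries had a lowest value of 5.32, a median of 6.66 and a highest of 9.03. In their lung metastases these were 7.57, 8.58 and 11.15. The ranges overlapped, but the metastasis was higher in 7 of 7 pairs, by 0.29 (FC-279) to 4.48 (FC-28). The log2 difference was 1.91 (SE 0.48, adjusted p = 0.0430). Its paralog Hoxa5, which in mouse is needed for lung and airway development, was higher in 6 of 7 pairs and did not pass (log2 difference 1.36, SE 0.63, adjusted p = 0.206). Hoxa5 stood at 5.92 to 10.99 in the primaries and at 9.68 to 11.48 in the metastases, and both paralogs were highest in the metastasis of FC-28. Lung endothelium and mesenchyme genes were also higher in these metastases. All 5 were detected on every lung metastasis array, with list means of 7.14 to 11.1, lowest in CR-147 and highest in FC-28. In the paired primaries the list means were 5.18 to 6.59, with 1 to 3 detected. Hoxb5 too was lowest in the metastasis of CR-147, while Hoxa5 stood there at 10.62 and was lowest in that of RF-364. The part of this lung tissue in the levels of Hoxb5 and Hoxa5 was not tested. Without the FC-28 pair the Hoxb5 difference was 1.48 (adjusted p = 0.0543) and that of Hoxa5 was 0.66 (adjusted p = 0.245).

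Hoxd8, active in the trunk and the proximal limb, was detected in all 18 primaries. In the 7 paired primaries its lowest value was 6.27, the median 7.74 and the highest 9.42, and in their lung metastases 4.53, 4.75 and 8.97. It was lower in 7 of 7 pairs, with a log2 difference of -2.05 (SE 0.51, adjusted p = 0.0419 by limma). The 7 primaries alone met the detection filter, and 4 of the 7 metastases held undetected values. The size of the difference is therefore uncertain, and that p adds little to the detection calls. The metastases split: Hoxd8 was undetected in RF-364, CR-147, FC-28 and RF-379 and stood at 5.53 in RF-212, 8.97 in FC-279 and 7.58 in CRE-155, against 7.18, 9.24 and 7.74 in their primaries. Its neighbour Hoxd9, a posterior gene of the trunk and the upper limb segment, was detected in 6 of 7 primaries and in 2 of 7 metastases, those of CRE-155 and FC-279, the pairs in which Hoxd8 differed least. By its second probe Hoxd9 was undetected in the primaries of RF-379 (4.78) and RF-212 (4.85), where the chosen probe stood at 5.18 and 5.16. Hoxd9 did not pass (log2 difference -0.82, SE 0.30, adjusted p = 0.128). Hoxd4, at the anterior side of the same cluster, was detected in the primaries of FC-279 (7.44) and FC-28 (6.18) and in the metastasis of FC-279 alone (6.18). Of the lung metastases in which Hoxd8 was undetected, those of RF-364, CR-147 and RF-379 had the high hepatocyte transcripts given above. That of FC-28 had few osteoblast transcripts (list mean 6.76). The part of this array content in the Hoxd8 split was not tested. Skeletal muscle transcripts fell in the 7 pairs (9 of 9 tested genes lower), and their part in the Hoxd8 difference was not tested. In the 3 primaries with the lowest muscle list means (CR-65 at 5.04, RF-89 at 5.72 and RF-229 at 6.31), Hoxd8 stood at 8.60, 7.33 and 6.97. These 3 lie outside the 7 pairs, and CR-65 is a primary of low osteoblast transcripts. In the pairs, muscle content and tissue site cannot be told apart.

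**Figure D2:**
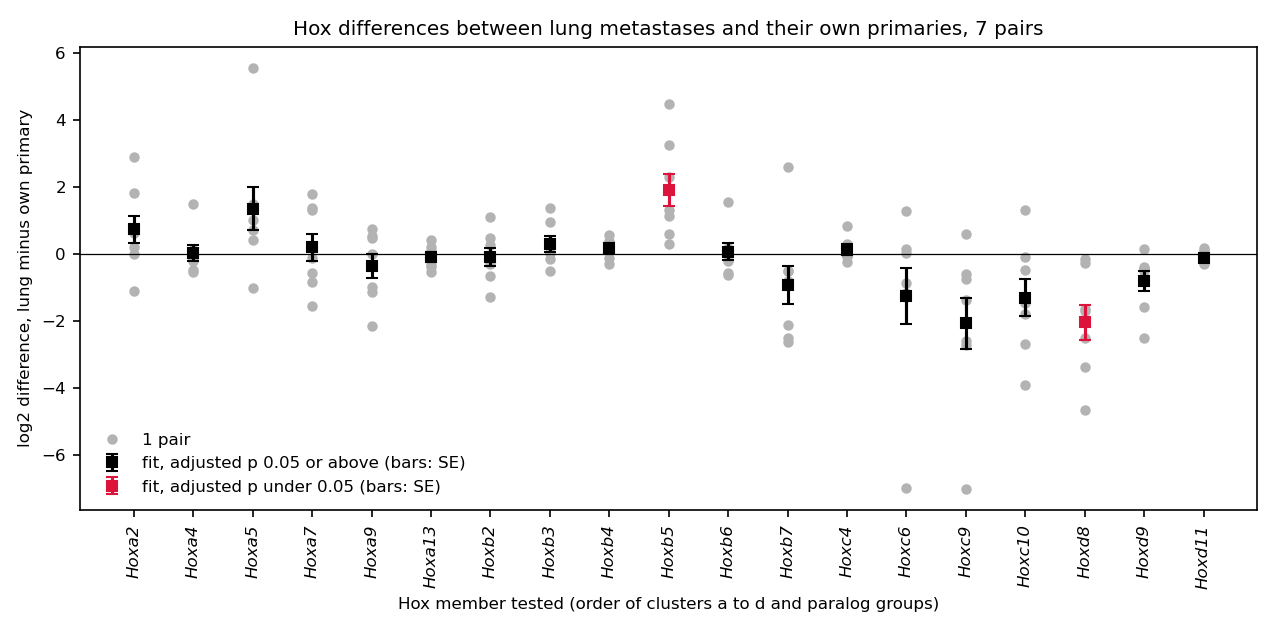
Log2 difference, lung metastasis minus own primary, for the 19 Hox members tested, ordered by cluster and paralog group. Grey points are single pairs (n = 7), squares the limma estimates with SE bars. Hoxb5 at 1.91 and Hoxd8 at -2.05 are marked as past the threshold, and the lowest points, near -7, are Hoxc6 and Hoxc9 in FC-28.

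Both calls were fragile. Leaving out 1 pair left 0 or 1 of the 2 calls, Hoxd8 alone without CRE-155 or without FC-279 and 0 without any of the other 5. The background of the arrays, the log2 mean signal of undetected probes, was 5.39 to 5.57 on the lung arrays and 5.67 to 6.20 on those of their primaries. These ranges did not overlap, so a fit with background as a covariate cannot tell background from tissue. In that limma fit the estimates were 5.17 for Hoxb5 (adjusted p = 0.137) and -6.10 for Hoxd8 (adjusted p = 0.0967). Hoxa5 and Hoxc6 passed in their place, and no conclusion is drawn from these values.

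The upstream sequences of Hoxd8 and its neighbour Hoxd9 are shown because both genes were undetected in the lung metastases of RF-364, CR-147, FC-28 and RF-379, and that of Hoxb4 because it was lower in liver. Hoxb5 has no entry in the promoter table used. Each run is the 250 bases before the annotated start, from RefSeq (GRCm38.p6), read 5′ to 3′ on the gene's strand, and capitals mark AGGTCA or its reverse complement TGACCT, the core bound by nuclear receptors such as those of retinoic acid. Hoxd8 lies at chr2:74704365-74704614, Hoxd9 at chr2:74697513-74697762 and Hoxb4 at chr11:96318017-96318266, all on the plus strand.
Hoxd8: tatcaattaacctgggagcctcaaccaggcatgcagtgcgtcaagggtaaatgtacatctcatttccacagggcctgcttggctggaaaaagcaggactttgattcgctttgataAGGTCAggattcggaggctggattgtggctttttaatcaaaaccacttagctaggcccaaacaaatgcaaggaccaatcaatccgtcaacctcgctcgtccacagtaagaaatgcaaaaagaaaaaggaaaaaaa
Hoxd9: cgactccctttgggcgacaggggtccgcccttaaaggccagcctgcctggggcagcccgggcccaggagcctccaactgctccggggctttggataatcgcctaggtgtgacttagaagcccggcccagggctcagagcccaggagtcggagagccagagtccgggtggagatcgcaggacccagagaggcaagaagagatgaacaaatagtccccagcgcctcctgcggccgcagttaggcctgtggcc
Hoxb4: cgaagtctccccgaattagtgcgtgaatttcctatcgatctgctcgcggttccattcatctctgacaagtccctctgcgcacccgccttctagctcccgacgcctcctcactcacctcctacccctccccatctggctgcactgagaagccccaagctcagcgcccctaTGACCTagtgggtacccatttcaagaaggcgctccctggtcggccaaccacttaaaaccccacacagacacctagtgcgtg
The core is present once in the Hoxd8 window and once, on the other strand, in that of Hoxb4, and not in that of Hoxd9. On either strand it was found in 6 of the 24 Hox promoters in the table, which cover 22 members, and in 14% of all 32851 promoters of that length. Of 3 further motifs searched on both strands, TGATNNAT, a composite site of Hox and Pbx proteins, was in 4 of the 24 (7.68% of all promoters), TTTATG, a site of posterior Hox and Cdx proteins, in 5 (10.8%) and TATAAA in 4 (12.4%). None of these 3 was in the windows shown, so no motifs overlap there. A match describes the letters in the window only. CG pairs numbered 6 in the Hoxd8 window, 13 in that of Hoxd9 and 14 in that of Hoxb4, with a median of 6 over all promoters.

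In cluster c, Hoxc6, Hoxc9 and Hoxc10 were lower in 4 to 6 of 7 pairs without passing. Hoxc9, a posterior gene of the thoracic region, ran from 9.51 to 11.60 in the primaries, with a median of 10.96, and from 4.59 to 10.99 in the metastases, with a median of 9.98. It was lower in 6 of 7 pairs (log2 difference -2.07, SE 0.76, adjusted p = 0.129). Hoxc10 was lower in 6 of 7 pairs (-1.30, SE 0.54, adjusted p = 0.166), and Hoxc6, a gene of the upper trunk, in 4 of 7 (-1.26, SE 0.83, adjusted p = 0.350). The FC-28 metastasis set the low end of Hoxc6 and Hoxc9, and without that pair the mean difference was -0.30 for Hoxc6, -1.24 for Hoxc9 and -0.87 for Hoxc10 (adjusted p = 0.299 for Hoxc10). Hoxb7, a central gene of the trunk, was lower in 6 of 7 pairs and higher by 2.59 in CRE-155 (-0.92 over all pairs, SE 0.56, adjusted p = 0.317).

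Genes that work with or upstream of Hox proteins were counted by list. The cofactor list holds the Meis, Pbx and Pknox genes, whose products bind DNA together with Hox proteins. It also holds the homeobox gene Hmbox1, for which that role is not claimed. Between lung metastases and primaries, where 5.69% of all genes were higher and 2.59% lower, 0 of its 8 tested genes passed (median log2 difference 0.27), and 0 of 21 regulators of Hox chromatin such as Polycomb and Trithorax proteins did (-0.02). In the retinoic acid pathway, which induces anterior Hox genes in the embryo, Aldh1a1 and Aldh1a2, enzymes that make retinoic acid, were higher and 0 of 8 lower (0.05). Among 7 tested genes of limb and axial identity, Tbx4, a T-box gene of hindlimb and lung mesenchyme that also stands on the lung mesenchyme list, was higher and Shox2, a gene of proximal limb bones, lower (-0.26). Lung epithelium genes were higher in the same pairs (10 of 10), and their part in these list genes was not tested. The same 4 lists had 0 of 8, 21, 12 and 6 tested genes past the threshold between metastatic and localized primaries.

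In the liver metastases, 2 of 26 tested members were lower than in the metastatic primaries and 0 higher, by limma with the specimen as a random block over 21 arrays. The share of all 13517 genes called was 9.37%, with 7.09% higher and 2.28% lower. Of the 26, 10 were detected on neither liver array and passed the filter through other arrays, the called Hoxd8 among them. No median over the members is therefore given. Hoxb4, an anterior gene of the neck region that also acts in blood stem cells, stood at 8.26 and 7.78 in the liver metastases of CR-147 and RF-342. In the 12 primaries its lowest value was 8.57, its median 8.997 and its highest 9.49, so the groups did not overlap. The log2 difference was -1.03 (SE 0.24, adjusted p = 0.00561). Against the 7 lung metastases, of which the lowest stood at 8.44, it was -1.14 (SE 0.25, adjusted p = 0.00335), the 1 call among the 26 members, where 9% of all genes were called, 5.76% higher and 3.24% lower.

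Hoxd8 was not detected in either liver metastasis (4.71 in CR-147, 4.50 in RF-342) and detected in 12 of 12 primaries (6.27 to 9.84). It was at least 5.71-fold lower in liver, as the mean of the primaries over the lowest signal among detected probes. The adjusted p in the limma fit was 0.0353, but Hoxd8 is among the 10 members that passed the filter through other arrays only. That p therefore adds no support beyond the detection calls. Hoxc6 stood at 8.40 in the liver metastasis of CR-147 and at 5.50 in that of RF-342, against 7.69 to 11.92 in the primaries, and did not pass (log2 difference -3.07, SE 1.09, adjusted p = 0.0887). Hepatocyte genes were detected in full on both arrays (10 of 10, list means 13.2 and 13.3), and their part in these differences was not tested. Without either liver array 0 members passed against the primaries, where 1 liver sample was assumed to vary like the other groups. The retinoic acid list had Aldh1a1, Cyp26a1 and Rxrg higher of 13 tested, the cofactor list Meis3 lower of 9, the chromatin list 0 of 22 and the limb list 0 of 11. Over all genes tested, 7.09% were higher and 2.28% lower. The part of hepatocytes in these list genes was not tested either.

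Whether a lung metastasis kept the Hox level of its own primary was asked gene by gene. The mean absolute log2 difference over the 7 true pairs was set against all 5040 ways of pairing the metastases with the primaries, in a one-sided exact permutation test. Of 19 members, 0 passed at an adjusted p under 0.05, as did 0% of all 11214 genes; the smallest p the design allows is 0.000198, and the smallest adjusted p over all genes was 0.156. At an unadjusted p under 0.05 there were 2 members, against 20.9% of all genes. The true pairs lay nearer than other pairings for 16 of 19 members and for 81.1% of all genes. By that count the members stood near the rest of the array, while their share at an unadjusted p under 0.05 was lower. The difference in shares was not tested.

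The smallest p belonged to central genes. For Hoxb6, a gene of the trunk, the true pairs differed by a mean of 0.47 and other pairings by 1.04 (exact permutation p = 0.0317, adjusted p = 0.213). It was detected in both tissues of 4 pairs and in neither tissue of CR-147 and RF-379. For Hoxa7 the values were 1.08 and 1.99 (exact permutation p = 0.0405, adjusted p = 0.222). The RF-364 tumour carried the lowest Hoxa7 of all primaries (4.84, undetected), and its metastasis the lowest of all metastases (6.20). For Hoxb2, next in order, the values were 0.61 and 0.91 (exact permutation p = 0.105, adjusted p = 0.298). At the other end, the true pairs of Hoxc9 (2.24 and 2.24), Hoxa5 (1.65 and 1.55) and Hoxa13 (0.29 and 0.22) were no nearer than other pairings.

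**Figure D3:**
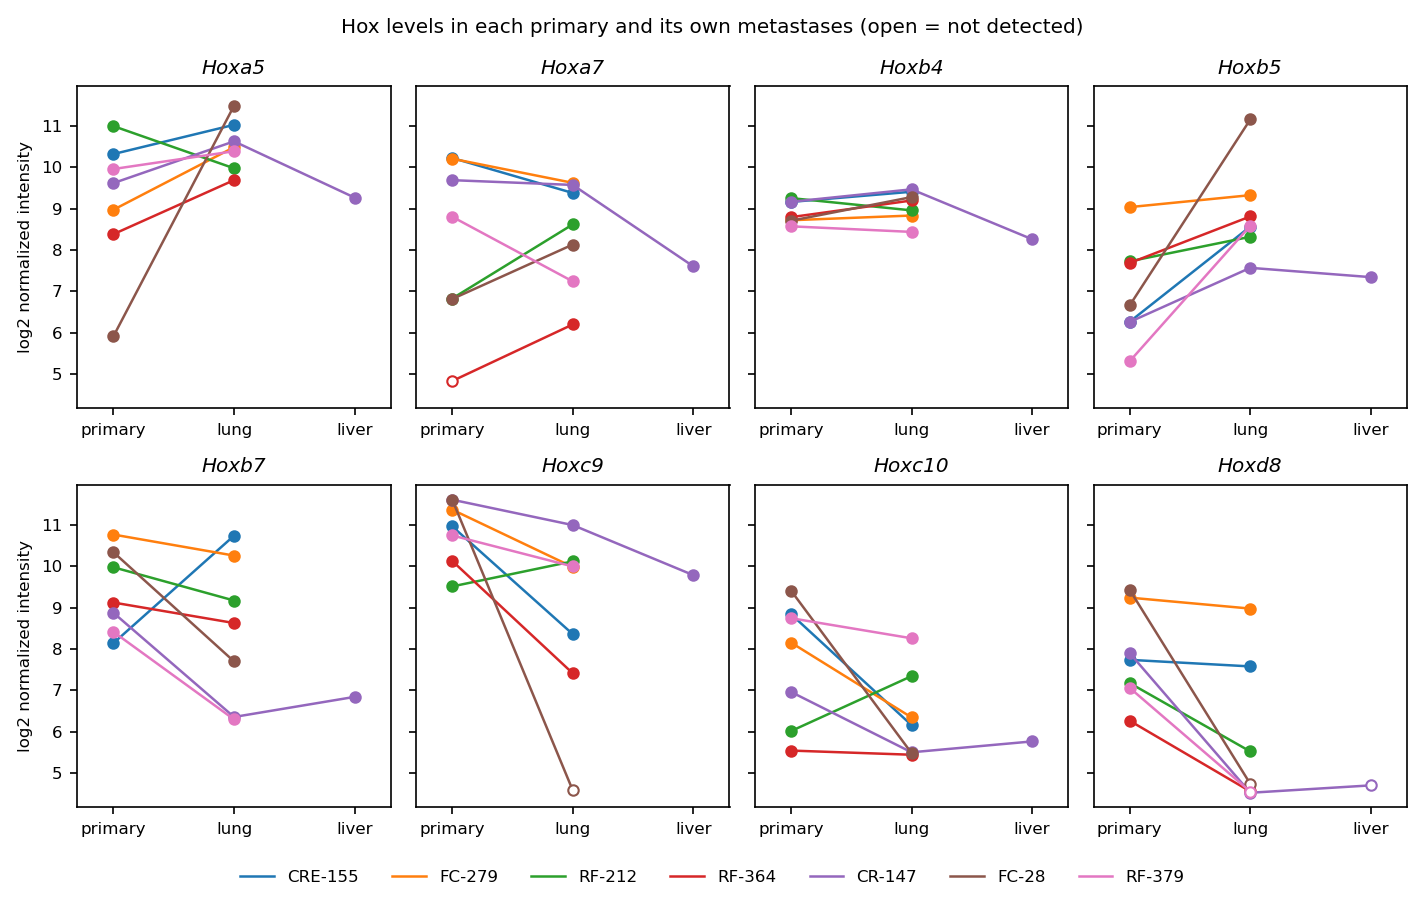
Log2 normalized intensity of 8 Hox members in each primary, its lung metastasis and, for CR-147, its liver metastasis, with 1 line per specimen and open circles where the probe was not detected. Every Hoxb5 line rises and every Hoxd8 line falls into the lung, the RF-364 line is lowest at both ends for Hoxa7, and the FC-28 line crosses the others in several panels.

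Over the whole Hox profile, 3 of 8 metastases lay nearest their own primary among the 12 metastatic primaries. The distance was the mean absolute log2 difference over the 28 detected members. It was 0.53 for the FC-279 lung metastasis (nearest other primary 0.61), 0.56 for RF-364 (0.69) and 0.63 for RF-379 (0.72). The own primary had rank 3 for the CR-147 lung metastasis (0.71), rank 5 for RF-212 (0.54), rank 7 for CRE-155 (0.79) and rank 8 for the CR-147 liver metastasis (0.82). For FC-28 it ranked 12 of 12 (1.98, others 1.00 to 1.58). Over 13776 genes detected on at least 2 arrays, the own primary ranked first for 5 of 8 metastases and among the first 3 for 7 of 8. The differing ranks were not tested, since a score over the members has no p here. With the 12 posterior members alone, 1 metastasis (RF-379) lay nearest its own primary.

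**Figure D4:**
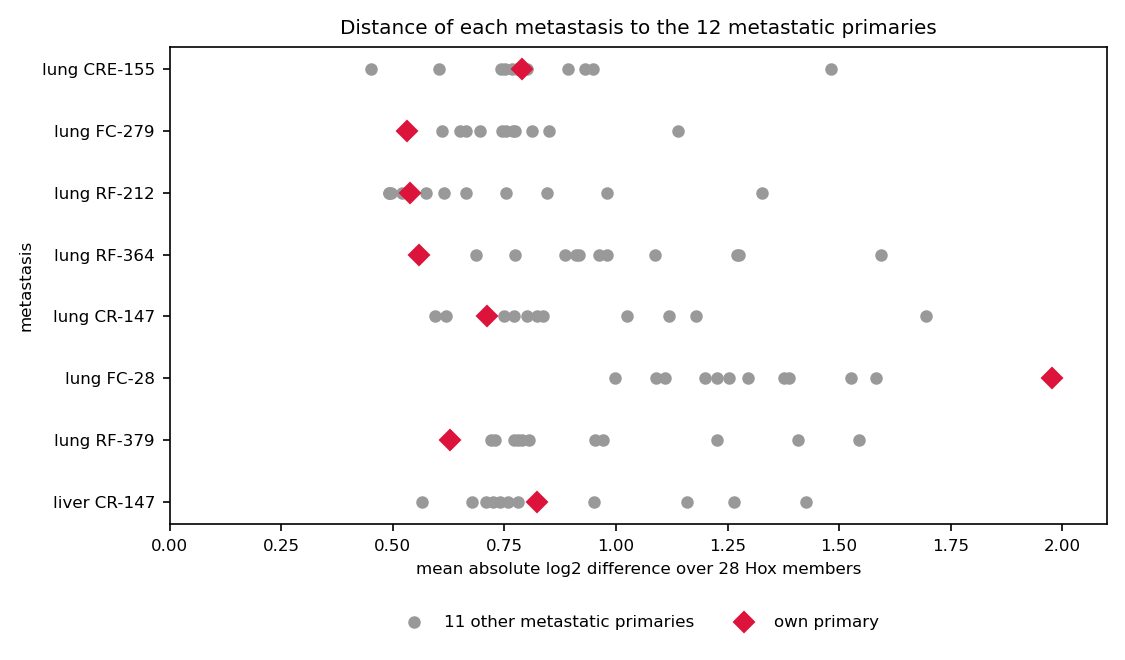
Mean absolute log2 difference over 28 Hox members between each of 8 metastases (rows) and the 12 metastatic primaries, with the own primary as a red diamond and the 11 others as grey circles. The diamond is leftmost for FC-279, RF-364 and RF-379 and rightmost for FC-28.

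The specimens differed in what was kept. FC-279 had the smallest mean distance to its own primary (0.53, beside 0.54 in RF-212). In it 19 members were detected in both tissues, 17 of the 23 detected in either lay within 1 log2 unit, and 0 moved by 2 or more. Its primary and metastasis shared Hoxd4, Hoxd8, Hoxd9 (7.01 and 6.60) and a high Hoxb7 (10.76 and 10.25), while Hoxb9 (6.72 and 5.18) was undetected in the metastasis. RF-379 kept Hoxc10, at 8.74 and 8.26, and by the second probe at 9.53 and 9.18, while Hoxd8 stood at 7.06 and 4.56, undetected, and Hoxb5 at 5.32 and 8.58. In RF-364 both tissues had a low Hoxc10 (5.55 and 5.45, and by the second probe 4.81 and 4.59, undetected) and an undetected Hoxa9. The lung metastases of CR-147 (5.51) and FC-28 (5.49) had a Hoxc10 as low, and Hoxa9 was also undetected in those of FC-28 and RF-379. Hoxc9 in RF-364 stood at 10.12 and 7.41.

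In CRE-155 the members differed in both directions. The log2 difference, metastasis minus primary, was 2.29 for Hoxb5 and 2.59 for Hoxb7, and -2.14 for Hoxa9, -2.60 for Hoxc9 and -2.68 for Hoxc10. By the second probe Hoxc10 stood at 9.19 in that primary and was near the floor in the metastasis (4.67). RF-212 went the other way for Hoxc10, with 6.02 in the primary and 7.34 in the metastasis, and by the second probe 4.75, undetected, and 8.13. Hoxa7 was higher by 1.79 in that metastasis.

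The CR-147 tumour gave a lung and a liver metastasis. Hoxd8 stood at 7.90 in the primary and was undetected in both metastases, and Hoxb7 stood at 8.87 in the primary, 6.36 in lung and 6.84 in liver. Hoxc9 was detected in all 3, at 11.60, 10.99 and 9.78. Hox calls, detected or not, matched for 36 of 38 members between the 2 metastases, 35 between the lung metastasis and the primary, and 33 between the liver metastasis and the primary. The 11 other metastatic primaries matched the lung metastasis for 28 to 37 members and the liver metastasis for 27 to 35, ranges that hold the 35 and the 33. The limb gene Hand2, which sets the posterior border of the limb bud, was detected in these 3 samples alone among the 27, at 7.58, 7.15 and 6.53. The liver array also held lung epithelium transcripts, as given above, and their part in the likeness of the metastases was not tested.

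FC-28 stood apart. Its primary had high Hoxc6 (11.64), Hoxc9 (11.60), Hoxc10 (9.41), Hoxd8 (9.42), Hoxd9 (7.30), Hoxd10 (7.41) and Hoxb9 (6.60). In the array of its lung metastasis Hoxc6 (4.65), Hoxc9 (4.59), Hoxd8, Hoxd9, Hoxd10 and Hoxb9 were undetected and Hoxc10 was at 5.49, 4.58 and undetected by the second probe. In all, 8 members were lower by 2 or more, and Hoxa2, Hoxa5 and Hoxb5 higher by 2 or more. Tbx4 was at 11.65 there, the highest of all arrays, and Tbx5, a T-box gene of forelimb and lung, was detected on this array alone (6.72). Osteoblast genes were low in both tissues of FC-28, at list means of 7.79 and 6.76, and lung epithelium was highest in this metastasis (13.4). How much tumour RNA that array holds was not tested.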

How the data were processed

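RNA of 27 mouse tumour samples was hybridised to Illumina bead arrays of 1 colour, grouped and paired by the sample group and specimen identifier in the labels. Per the file headers, the deposited bead files hold the average intensity of 45281 probes, not normalized. The deposited files also give a detection score, of which 1 minus the value was used as the detection p-value, and other values such as bead numbers (medians 41 to 44). The series matrix deposited by the authors holds log2 values and served as an alternative; its probes were linked through identical ranks on all arrays (45281 of 45281). BeadStudio is named in the submitters' processing notes, with no version.

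Probes with 1 symbol in the platform annotation (34885) were named. Intensities were background-corrected with neqc of limma 3.58.1 in R 4.3.3 (offset 16) and quantile normalized over 27 arrays. Between 42.6% and 47.5% of probes were detected per array, and the number of arrays limits the precision. Groups were compared with lmFit and eBayes, two-sided, Benjamini-Hochberg adjusted over all genes tested, with the specimen as a block for lung (7 pairs) and as a random block (duplicateCorrelation, statmod 1.5.0, consensus correlation 0.355) for the liver comparisons, where a gene had to be detected on at least 2 of 21 arrays. In the 7 pairs the deviations of samples of 1 specimen correlated at 0.324 to 0.548. Scripts were tested on simulated data.

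The members, gene lists and tests were chosen with earlier results of these data known. Members were named if they passed a test, were among the 10 most variable over primaries or the 3 smallest p of a comparison, or for their place in a cluster; Hoxd10 and the specimen descriptions were chosen after values were seen. Alternatives changed normalization, background correction, filter, block, probes and samples. The gene Trp53 was not analysed here.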

Additional observations from a re-analysis of the deposited data

Results flagged for a closer look

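In 30 sets of 6 to 7 arrays, made of 15 named members in the localized primaries and in the lung metastases, 5 had 1 array set apart from the rest by Dixon's criterion, which flags about 1 in 20 by chance. Hoxb2 in the FC-28 lung metastasis was 8.46, below 9.52 to 10.02 in the other 6. Hoxc6 in the same array was 4.65, below 8.20 to 10.17. Hoxb9 in the FC-279 lung metastasis was 5.18, above 4.45 to 4.65, though undetected there. Hoxd11, a posterior gene of the limb, was 5.80 in the localized primary CR-65, above 4.86 to 5.11. Hoxd11 was 5.46 in the RF-212 lung metastasis, above 5.16 to 5.28.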

How the results depend on the processing

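Between metastatic and localized primaries 0 Hox members passed under every alternative run, including without the 4 primaries of low osteoblast transcripts, an alternative chosen after seeing the data. In the lung pairs, 2 members passed in the main setting and 0 without background correction, with the authors' matrix, without the detection filter, without the replicate block or without the 3 pairs with hepatocyte transcripts (chosen after seeing the data). Leaving out 1 pair gave 0 to 1. Median scaling gave 3, with Hoxc9 added. The range of adjusted p was 0.0374 to 0.194 for Hoxb5 and 0.0152 to 0.258 for Hoxd8, and neither changed sign. Against the metastatic primaries, 2 members passed in liver. Without background correction, with the authors' matrix or without the filter 1 passed (Hoxb4 each time), and 1 with background as a covariate (Hoxd8). Array background was 5.47 to 5.49 in liver and 5.54 to 6.20 in the metastatic primaries, so it cannot be told apart from site. Leaving out a liver array gave 0 to 0. Against lung metastases, where 1 passed, leaving out RF-342 gave 0 and leaving out CR-147 gave 1. The causes were not tested. The pair test gave 0 throughout. The number of metastases nearest their own primary stayed at 3 or 4 except for 1 with posterior members only. Few arrays and probes near background limit all of these values.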
